A study of Mus musculus with 6 samples.

Results

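Bone morphogenetic proteins (BMPs) and the genes that hold them in check were read in mouse forelimb buds at embryonic day E10.5. The set is 10 named genes: the ligands Bmp2, Bmp4 and Bmp7, the secreted antagonists Grem1 and Nog, the inhibitors Smad6, Smad7 and Bambi, and the target genes Msx1 and Msx2. They are 10 of the 18193 genes on the array that carry a probe set with 1 gene symbol, and they have 15 of its 45101 probe sets. Every probe set annotated to them was read, and a gene with several is represented below by the brightest of them on average (mean log2 signal). Of the 10 genes, 9 were above the median signal on all 6 arrays and 1, Nog, was on none.

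BMP ligands bind serine/threonine kinase receptors that phosphorylate SMAD proteins, which enter the nucleus and switch on targets such as the Msx genes and genes for the pathway's own inhibitors. In the early limb bud BMPs are made in the mesenchyme and in the apical ectodermal ridge, the signalling epithelium at the distal edge. Gremlin 1, made in distal posterior mesenchyme downstream of Sonic hedgehog, binds BMPs outside the cell and by that sustains growth factor production in the ridge.

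The buds came from CD1 strain embryos, with 1 array for the proximal part and 1 for the distal part in each of 3 conditions. The double knockout, called dKO, has the genotype Prx1-Cre; Ring1A-/-; Ring1Bfl/fl, in which Cre removes Ring1B on a Ring1A-null background. Prx1-Cre is known to act in limb bud mesenchyme and not in the covering ectoderm, so ridge cells of the dKO are not the cells it targets. The second condition, called RA, was WT by genotype and received all-trans retinoic acid by maternal oral gavage at E10.25, at 100 mg/kg. The control carries the genotype Ring1A-/- although its description calls it WT, and it received no retinoic acid. The dKO and its control therefore share the Ring1A deletion, whereas RA and control differ both in retinoic acid and in the Ring1A genotype label, and these 2 cannot be told apart. The labels used here do not say how many embryos entered a sample.

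Values are MAS5 signals on a linear scale. The median of each array, 59.5 to 76.1, served as its floor: lower signals were raised to it and log2 was then taken. With 1 array per group, differences between arrays have no replicate check. Differences of at least 2-fold were counted. Each count within a comparison stands beside the share of all tested genes that passed the same fold, or beside their number in the closing section. An additive fit in limma, with condition and part as terms over the 6 arrays, tested each effect averaged over the parts or conditions against no difference. The fit has no term for an effect that differs between the parts, so it does not test whether effects were alike. Such differences enter its error. Its p-values, adjusted by Benjamini-Hochberg over 12147 genes, rest mostly on variance pooled over genes and are no replicate test. "Rose" and "fell" are used only of genes past an adjusted p of 0.05 in that fit.

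The proximal RA array stood apart from the others. Its log2 signals correlated across genes with those of the other 5 arrays at r = 0.961 to 0.973, against 0.974 to 0.993 among those 5. It was the lowest of the 6 arrays for 7 of the 9 measured BMP genes, and for 31.5% of all 12147 genes. It was also the highest for 2 of the 9, and for 31.9% of all genes. Its GAPDH 3'/5' signal ratio was 1.60, against 1.28 to 1.39 on the other arrays. The hybridisation spike-in BioB, read from 1 probe set, had signals of 84.4 and 103 on the proximal and distal RA arrays, against 1105 to 1223 on the other 4. The part of these differences in the RA results was not tested. Each proximal RA value below therefore stands beside the distal RA value of the same gene. Of the limb mesenchyme markers, 9 of 10 were above the floor on every array and Msc was on none. Their summed signal was 26523, 18847 and 29001 in proximal dKO, RA and control, and 23538, 20796 and 26436 in the distal parts in the same order. In proximal RA 1 of 9 tested mesenchyme markers was 2-fold lower than control and 0 higher, where 6.8% and 3.69% of all genes tested were. The median log2 difference of these markers was -0.78, against -0.23 in distal RA. The part of this in the proximal RA values of Grem1 and Msx1 was not tested.

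The main differences were in the antagonist Grem1 and the ligand Bmp2. Grem1 signal was below that of the matching control in both parts of the dKO and in both parts of RA. Bmp2 was 2.92-fold higher in proximal dKO than in proximal control and 2.09-fold lower in distal RA than in distal control. Bmp4 and Bmp2 were higher distally than proximally in every condition. Bmp7, Smad6, Bambi and Msx2 stayed under 2-fold in every comparison, and in the additive fit 0 of the 9 measured genes passed the threshold for any of the 3 effects.

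**Figure D1:**
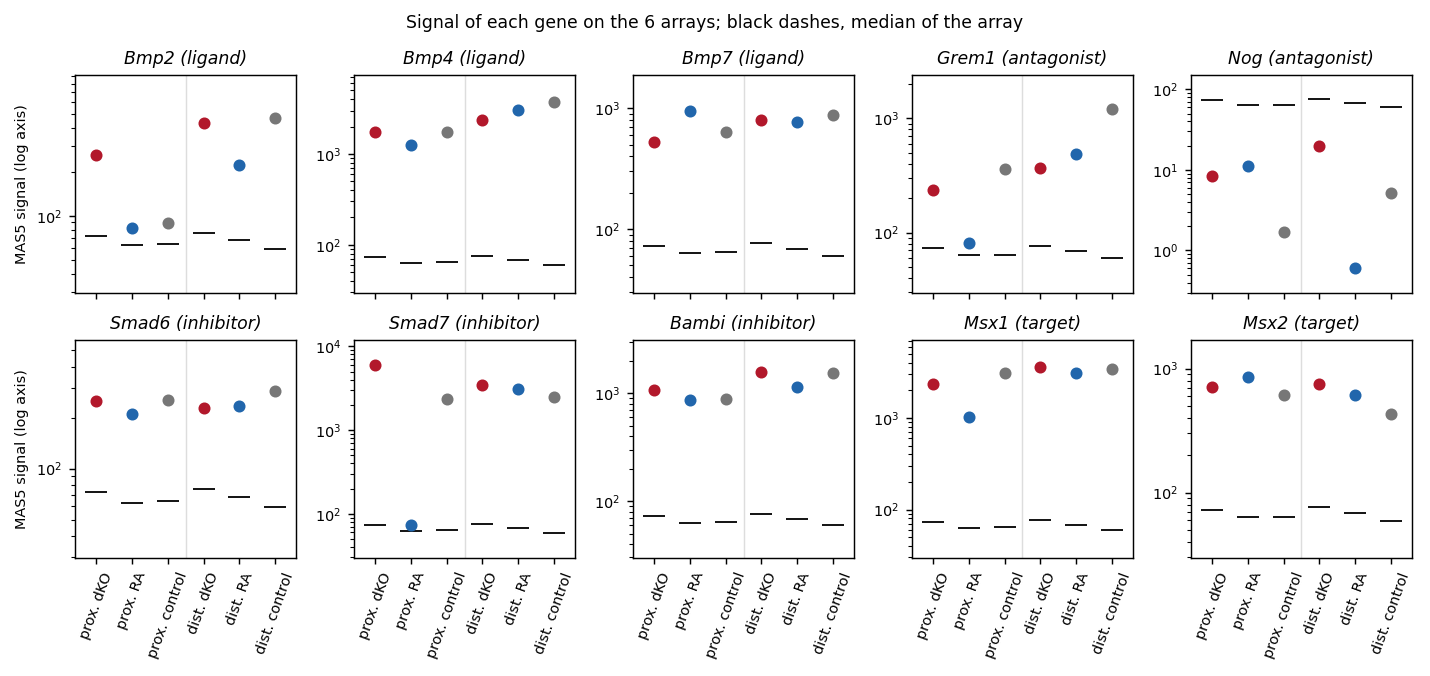
Signal of each of the 10 genes (log axis) on the 6 arrays, 1 point per array: dKO red, RA blue, control grey, with the proximal part left of the line and the distal part right of it. Black dashes mark the median of each array; all points of Nog lie under them, and those of the other 9 genes lie above them.

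Gremlin 1 is the BMP antagonist that the limb bud needs for outgrowth. Its gene lies at chr2:113748675-113758648 (GRCm38.p6). In the proximal part the Grem1 signal was 234.1 in dKO, 80.9 in RA and 357.1 in control. In the distal part it was 368.1 in dKO, 483.4 in RA and 1208 in control. The distal control array was thus the highest of the 6, by more than 2-fold over any other, and proximal RA was close to its floor of 63.0.

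Relative to control, Grem1 was lower by 3.28-fold in distal dKO (log2 -1.71), where 18 of 11646 genes, Grem1 included, were as low or lower. In proximal dKO the difference was 1.53-fold (log2 -0.61). In RA it was lower by 2.50-fold distally (log2 -1.32) and by 4.42-fold proximally (log2 -2.14). The direction was the same in all 4 comparisons, but the fit did not call it. The dKO effect over both parts was log2 -1.16 (SE 0.44, limma adjusted p = 0.354), and the RA effect was log2 -1.73 (SE 0.44, limma adjusted p = 0.16). With the proximal RA array left out, they were log2 -1.16 and -1.05, but that fit has only 1 RA array and 1 residual degree of freedom.

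The 250 bases before the annotated start of Grem1 are shown because Grem1 was 2-fold or more below control in 3 of the 4 condition comparisons. Those of Smad6 are shown beside them as the measured gene whose signal varied least. Both are RefSeq sequences of build GRCm38.p6, at chr2:113758649-113758898 and chr9:64022060-64022309, each on the minus strand and read towards the gene. The transcript start of Smad6 in that table lies inside the gene's outer bound, so these ranges overlap at their ends.
Grem1: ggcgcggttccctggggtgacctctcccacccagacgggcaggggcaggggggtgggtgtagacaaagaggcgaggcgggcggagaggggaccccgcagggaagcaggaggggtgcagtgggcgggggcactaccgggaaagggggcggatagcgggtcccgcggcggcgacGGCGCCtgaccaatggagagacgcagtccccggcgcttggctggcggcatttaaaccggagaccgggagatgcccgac
Smad6: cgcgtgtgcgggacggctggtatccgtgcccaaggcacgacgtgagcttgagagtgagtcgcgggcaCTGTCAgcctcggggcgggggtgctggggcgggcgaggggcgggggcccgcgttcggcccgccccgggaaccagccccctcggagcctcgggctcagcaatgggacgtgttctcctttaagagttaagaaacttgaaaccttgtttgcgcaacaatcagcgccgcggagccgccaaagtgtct
Capitals mark matches, on either strand, to 5 motifs that were searched. They are the GC-rich SMAD element GGCGCC, the palindromic SMAD element GTCTAGAC, the MEIS-type motif TGACAG, the GLI-type motif TGGGTGGTC and the retinoic acid element, a direct repeat of AGGTCA with 5 bases between the copies. Of the 10 genes, 5 have a window in the RefSeq table, namely Bmp4, Grem1, Msx1, Msx2 and Smad6. GGCGCC was found in 1 of the 5, Grem1, and in 9.59% of all 32841 windows of that length. TGACAG was found in Smad6 alone and in 15.9% of all windows. The GLI-type motif, the palindromic element and the direct repeat matched none of the 5, and matched 0.225%, 0.167% and 0.00913% of all windows. The windows of these 5 genes held 11 to 27 CpG dinucleotides, 24 in Grem1 and 27 in Smad6, against a median of 6 over all windows. A match describes these letters and is not evidence of binding.

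Noggin, the other antagonist, also binds BMPs outside the cell and is best known in the limb from cartilage. Its signal was 8.3, 11.3 and 1.7 in proximal dKO, RA and control, and 19.5, 0.6 and 5.1 in the distal parts in the same order. All 6 values were under the floor, so no difference is given for Nog.

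Among the ligands, Bmp2 varied most. The Bmp2 gene, at chr2:133552159-133562896 (GRCm38.p6), encodes a ligand of the distal posterior mesenchyme and ridge. Its signal in the proximal part was 261.5 in dKO, 82.4 in RA and 89.7 in control. In the distal part it was 431.8 in dKO, 221.8 in RA and 464 in control. Proximal dKO was thus well above the other proximal arrays, and distal RA was below the other distal arrays. Proximal RA and proximal control were close to their floors of 63.0 and 64.0, so folds against them rest on low signals.

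The dKO difference in Bmp2 was log2 1.54 proximally and -0.10 distally, and 166 of 11580 genes, Bmp2 included, were as high or higher proximally. In RA the difference was log2 -0.12 proximally and -1.06 distally. Distal Bmp2 signal exceeded proximal by 1.65-fold in dKO, 2.69-fold in RA and 5.17-fold in control. In control 7 of 11391 genes, Bmp2 included, had a proximal minus distal difference as low as that of Bmp2 (log2 -2.37). In the fit the dKO effect was log2 0.72 (SE 0.39, limma adjusted p = 0.653), the RA effect log2 -0.59 (SE 0.39, limma adjusted p = 0.457) and the part effect log2 -1.51 (SE 0.32, limma adjusted p = 0.199). Such a fit averages over the parts, so the unlike dKO differences of Bmp2 in the 2 parts enter its error.

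Bmp4 encodes a ligand of limb mesenchyme and ridge and lies at chr14:46383525-46390669 (GRCm38.p6). Its proximal signal was 1739 in dKO, 1261 in RA and 1757 in control. Distally it was 2355 in dKO, 3034 in RA and 3744 in control. All 3 distal arrays were above all 3 proximal arrays. Proximal minus distal, the difference was log2 -0.44 in dKO, -1.27 in RA and -1.09 in control, and the fit gave log2 -0.93 (SE 0.18, limma adjusted p = 0.17). Against control, distal dKO was 1.59-fold lower (log2 -0.67), and the other 3 differences were between log2 -0.48 and -0.01. When each array was divided by its median, the distal dKO difference was log2 -1.02 and the proximal one -0.21. After quantile normalization the proximal one was 0.03.

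Bmp7 was read by 3 probe sets. The one with the highest mean gave 524.4 in dKO, 949.8 in RA and 633.4 in control proximally, and 795.4, 772.6 and 874.3 distally in the same order. Proximal RA was the highest and proximal dKO the lowest, and the range over the 6 arrays was log2 0.86. The RA difference was log2 0.58 proximally and -0.18 distally, and the other 2 probe sets gave 0.30 and 0.34 proximally and -0.16 and -0.10 distally. The dKO differences of the 3 probe sets were between log2 -0.45 and -0.04.

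**Figure D2:**
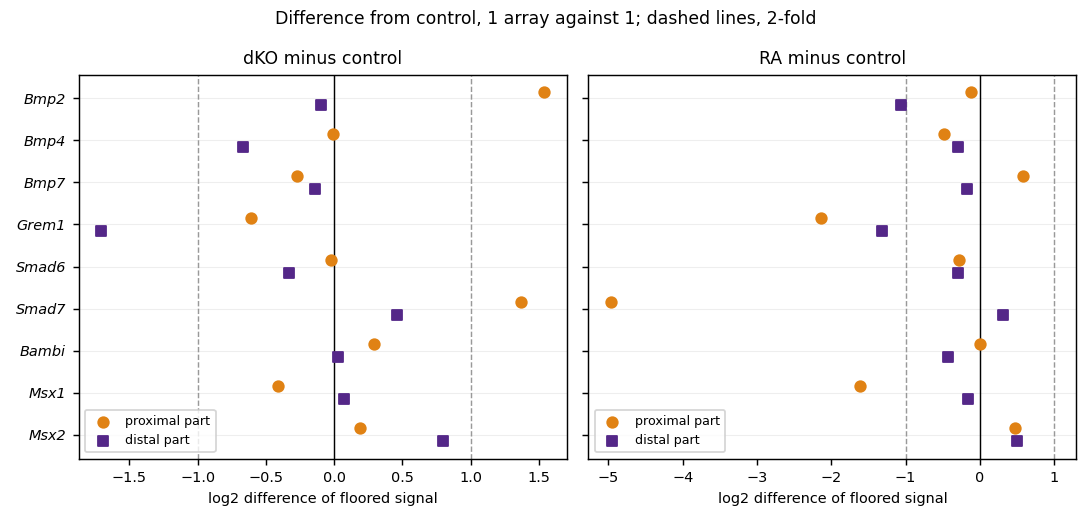
Difference from control in log2 floored signal for the 9 measured genes, dKO at left and RA at right, with the proximal part as orange circles and the distal part as purple squares; the horizontal scales differ. Grem1 lies left of 0 in all 4 comparisons, Bmp2 lies past the 2-fold line in proximal dKO, and the far left point in RA is the x_at probe set of Smad7.

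Smad6 and Smad7 encode inhibitory SMADs, and Bambi a pseudoreceptor without kinase activity, and all 3 are themselves induced by the signals they dampen. Smad6, at chr9:63953076-64022085 (GRCm38.p6), had a proximal signal of 249.3 in dKO, 208.9 in RA and 253 in control. Its distal signal was 229.4 in dKO, 235.1 in RA and 288.3 in control. The range over all 6 arrays was log2 0.47, the narrowest of the 9 measured genes, and its 4 differences from control were between log2 -0.33 and -0.02. Bambi had 1072, 875.2 and 877.2 in proximal dKO, RA and control, and 1571, 1142 and 1539 in the distal parts in the same order. Each distal Bambi signal was above all 3 proximal ones, with a part effect of log2 -0.58 (SE 0.15, limma adjusted p = 0.271).

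Smad7 was read by 2 probe sets that disagreed. Probe set 1443771_x_at, which had the higher mean, gave 6010, 74.1 and 2328 in proximal dKO, RA and control. Its distal values were 3453, 3111 and 2507 in the same order. The suffix x marks probes that can also match other transcripts, and the annotation lists no accession for it. Probe set 1423389_at gave 700.8, 516.2 and 719.7 proximally and 613.1, 700.8 and 609.6 distally. The differences from control in proximal RA were thus log2 -4.97 by the first and -0.48 by the second, and in proximal dKO 1.37 and -0.04. On distal arrays both probe sets stayed under 2-fold. Every 2-fold count in the comparisons of conditions and parts below that includes Smad7 by the first probe set is therefore also given without it. The counts in the closing section on processing use the first probe set unless stated otherwise.

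**Figure D3:**
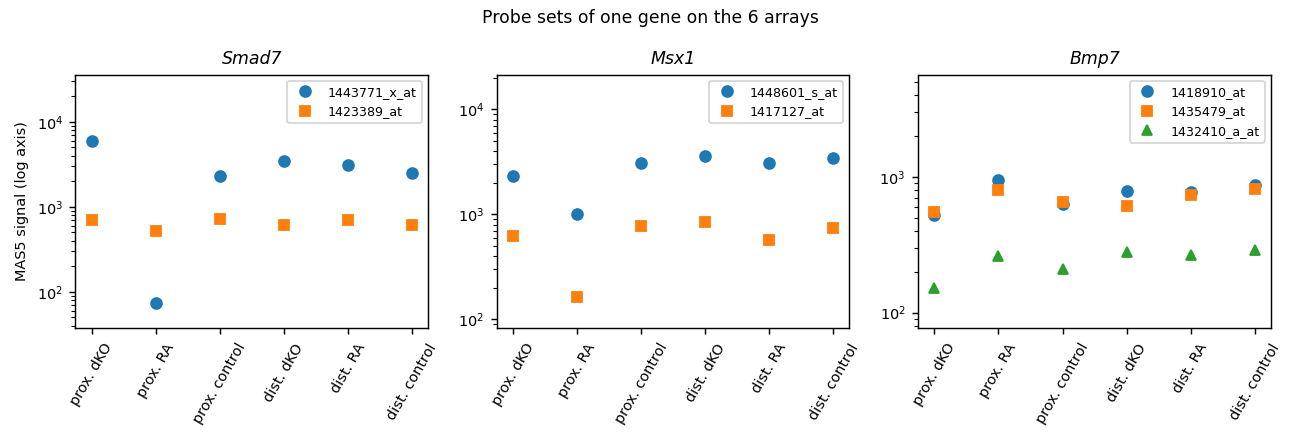
Signal (log axis) of each probe set above the floor for the 3 genes with several such probe sets, Smad7, Msx1 and Bmp7, on the 6 arrays, 1 symbol per array. For Smad7 the x_at probe set is at 74.1 in proximal RA while the other is at 516.2; for Msx1 both probe sets are lowest in proximal RA.

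Msx1 and Msx2 encode homeodomain repressors that BMP signalling switches on in distal mesenchyme and in the ridge. Msx1, at chr5:37820491-37824585 (GRCm38.p6), had a proximal signal of 2342 in dKO, 1013 in RA and 3115 in control. Distally it was 3575 in dKO, 3058 in RA and 3408 in control. Proximal RA was the low array by more than 2-fold, and the other 5 lay between 2342 and 3575. The difference from control in proximal RA was log2 -1.62, and -2.23 by the second Msx1 probe set, against -0.16 and -0.37 in the distal part. In dKO it was log2 -0.41 proximally and 0.07 distally.

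Msx2, at chr13:53466881-53472780 (GRCm38.p6), differed in the other direction. Its signal was 706.3 in dKO, 856.8 in RA and 618.1 in control proximally, and 750.2, 610.4 and 430.4 distally in the same order. Distal control was the lowest array. The differences from control were log2 0.19 and 0.80 in proximal and distal dKO, and 0.47 and 0.50 in proximal and distal RA. After division of each array by its median those in dKO were 0 and 0.45. The fit gave log2 0.50 for dKO (SE 0.24, limma adjusted p = 0.543) and 0.49 for RA (SE 0.24, limma adjusted p = 0.349). The second Msx2 probe set was under the floor on all 6 arrays.

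The comparison of dKO with control asks what loss of RING1B, on top of RING1A, does to these transcripts. In the proximal part 2 of 9 measured genes were 2-fold or more higher, Bmp2 and Smad7, where 4.07% of all 11580 genes tested were. None was lower, where 0.363% of genes were. Without the x_at probe set 1 of 9 was higher. In the distal part 0 of 9 were higher and 1, Grem1, was lower, where 5.32% and 0.524% of 11646 genes were. The median log2 difference of the 9 was -0.01 proximally and -0.10 distally, against 0.02 and 0.01 over all genes tested. In the fit 2.21% of genes rose and 0.115% fell in dKO, and 0 of the 9 did either. An unadjusted limma p under 0.05 was found for 1 of the 9, Grem1, and for 1411 of all 12147 genes.

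For RA against control the study asks how excess retinoic acid changes the same tissue. In the proximal part 3 of 9 genes were lower, Grem1, Msx1 and Smad7, and 0 were higher, where 6.8% of 11521 genes were lower and 3.69% higher. Without the x_at probe set of Smad7, 2 were lower. In the distal part 2 were lower, Bmp2 and Grem1, and 0 higher, where 2.13% and 2.16% of 11388 genes were. The medians of the 9 were -0.28 and -0.29, against 0.01 and -0.04 over all genes tested. In the fit 0.305% of genes rose and 0.239% fell in RA, and 0 of the 9 did either. Grem1 and Msx1, 2 of the 9, had an unadjusted limma p under 0.05, as had 2032 of all 12147 genes. The dKO and RA comparisons use the same control arrays, so their differences are not independent of each other.

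The parts were compared within each condition. In dKO 0 of 9 genes reached 2-fold in either direction, where 0.515% of 11642 genes were higher proximally and 0.722% lower. In RA 5 were lower proximally, Bmp2, Bmp4, Grem1, Msx1 and Smad7, and 0 higher, where 6.16% and 4.4% of 11493 genes were. Without the x_at probe set of Smad7, 4 were lower. In control 3 were lower proximally, Bmp2, Bmp4 and Grem1, and 0 higher, where 1.4% and 1.35% of 11391 genes were. The medians were -0.55 in dKO, -1.27 in RA and -0.47 in control, and that in RA was -0.44 with Smad7 read from its other probe set. Over all genes tested they were 0.01, 0.06 and 0. In the fit 0% of genes passed for the part effect in either direction, so that 0 of the 9 BMP genes did, although 5 of the 9 and 1156 of all genes had an unadjusted p under 0.05. Those 5 were Bambi, Bmp2, Bmp4, Grem1 and Msx1, all lower proximally. Without the proximal RA array their part effects were log2 -0.68, -1.55, -0.76, -1.21 and -0.37 in the same order, with 1 residual degree of freedom.

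**Figure D4:**
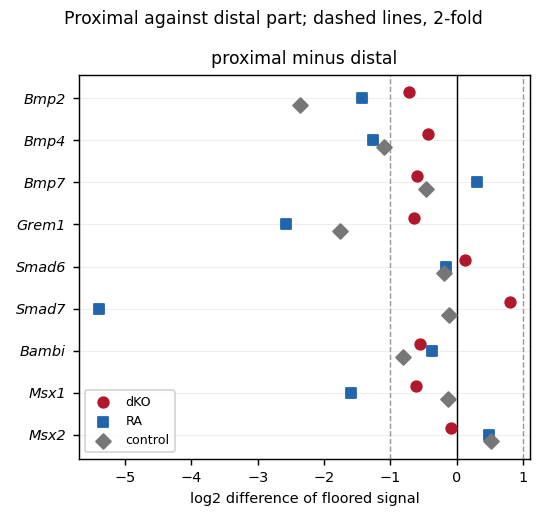
Proximal minus distal difference in log2 floored signal for the 9 measured genes in dKO (red circles), RA (blue squares) and control (grey diamonds). Bmp2, Bmp4, Grem1 and Bambi lie left of 0 in all 3 conditions, and the red circles of all 9 genes lie between the 2-fold lines.

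Grem1 and Bmp2 sit near 2 other signals of the distal bud. Sonic hedgehog (Shh), the posterior signal upstream of Grem1, had a distal signal of 57.6 in dKO, 432.5 in RA and 1099 in control, with the dKO value under its floor of 76.1. Fgf4, a growth factor of the ridge that depends on Grem1, had 104.4, 1431 and 2141 distally in the same order. Grem1 was thus 3.28-fold lower in distal dKO beside an Fgf4 difference of log2 -4.36, and 2.50-fold lower in distal RA beside -0.58. Of the other signalling genes read with them, Fgf8, Gli1 and Ptch1 were log2 -1.13, -1.72 and -0.79 in distal dKO. In distal RA they were -0.80, -0.67 and 0.08. Whether these genes moved together through one another was not tested.

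Bmp2 and Msx genes are also made in the ridge and ectoderm, so markers of those layers were read on the same arrays. The summed signal of the 12 ridge markers was 2713, 955 and 2102 in proximal dKO, RA and control, and 4173, 4750 and 6819 in the distal parts in the same order. Fgf4 alone made up 104.4, 1431 and 2141 of those distal sums, so most of the distal dKO difference is Fgf4. The median log2 differences of the tested ridge markers from control were 0.33 and -0.27 in proximal and distal dKO. In RA they were -0.61 and -0.51. Of the 9 ridge markers tested in proximal dKO, 2 were 2-fold higher and 0 lower, where 4.07% and 0.363% of all genes tested were. In distal RA 1 of 10 was lower and 0 higher, where 2.13% and 2.16% of all genes were. In distal dKO 3 of 10 were lower and 0 higher, where 0.524% and 5.32% of all genes were, while Bmp2 was log2 -0.10. In proximal RA 3 of 7 were lower and 0 higher, where 6.8% and 3.69% of all genes were, while Bmp2 was log2 -0.12. The sum of the 14 surface ectoderm markers was 15086, 12372 and 13767 proximally and 23155, 16909 and 23137 distally. In proximal dKO 4 of the 12 ridge markers were under the floor and 1 of 14 ectoderm markers, against 5 and 1 in proximal control. The part of these layers in the Bmp2 values was not tested. In whole tissue, fewer cells of a type and less RNA per cell cannot be told apart.

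The rest of the BMP pathway was read from 5 lists of other ligands, receptors, SMAD effectors, extracellular and intracellular modulators, and targets. Of these 65 genes 60 are on the array with 1 symbol and 46 were above the floor somewhere. In proximal dKO 5 of 44 tested genes were 2-fold higher and 0 lower, where 4.07% and 0.363% of all genes tested were. In distal dKO 3 and 0 of 44 were, where 5.32% and 0.524% of all genes were. In proximal RA 2 of 41 were higher and 6 lower, where 3.69% and 6.8% of all genes were. In distal RA 2 and 5 of 43 were, where 2.16% and 2.13% of all genes were. The median differences were 0.05 and 0.08 in dKO and -0.11 and -0.17 in RA.

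Past the threshold of the fit were 1 of the 46 genes in dKO and 1 in RA. Of all 12147 genes, 2.21% rose and 0.115% fell in dKO, and 0.305% rose and 0.239% fell in RA. Hjv, which encodes hemojuvelin, a BMP co-receptor best known from iron balance and also made in skeletal muscle, rose in dKO (log2 1.77, SE 0.31, limma adjusted p = 0.0423). Its signals were 263.3 in dKO against 74.1 in control proximally, and 340.3 in dKO against 104.3 in control distally. The summed signal of 6 muscle precursor markers was also higher, at 5686 in dKO against 4000 in control proximally and 2464 in dKO against 1243 in control distally. Of those tested, 1 of 5 was 2-fold higher proximally and 3 of 4 distally, where 4.07% and 5.32% of all genes tested were. None was lower, where 0.363% and 0.524% of all genes were, and Myod1 was under the floor on every array. Between the parts, the muscle marker sum was higher proximally in both dKO and control. Hjv was lower proximally in both, by log2 -0.37 in dKO and -0.49 in control, proximal minus distal. The part of muscle cells in the Hjv values was not tested. Tbx2, a T-box repressor regulated by BMPs in several organs, rose in RA (log2 2.10, SE 0.27, limma adjusted p = 0.0384). Its signals were 1224 in RA against 218.7 in control proximally, and 456.4 in RA against 138.5 in control distally. Both genes were thus higher in both parts, well above the floor in the changed condition. Tbx2 was also higher proximally than distally, by log2 1.06 in dKO, 1.42 in RA and 0.66 in control.

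Of the other ligands only Bmp5 was above the floor on any array, with 113.4, 31.3 and 115.8 in proximal dKO, RA and control and 128.7, 92 and 177.6 distally. Its RA differences were log2 -0.88, a bound set by the floor, and -0.95. The type I receptor Bmpr1b, which is needed for digit cartilage, was the receptor with the clearest proximal signal. It gave 427.2, 266.9 and 445.4 in proximal dKO, RA and control and 175.7, 63.2 and 103 distally. Proximal minus distal, Bmpr1b was log2 1.28 in dKO, at least 1.97 in RA and 2.11 in control, whereas that of Bmp2 and Bmp4 was below 0 in each condition. The type I receptor Bmpr1a, the type II receptors Bmpr2, Acvr2a and Acvr2b, and the co-receptors Eng and Rgma stayed under 2-fold in all 7 comparisons. Acvr1 was under the floor in proximal RA, where its difference from control, log2 -0.85, is a bound. Acvrl1, an endothelial receptor, was log2 1.04 in proximal dKO, beside a summed signal of 10 endothelial markers of 5839 in proximal dKO and 4135 in proximal control. Rgmb, a co-receptor, was log2 -1.04 in distal RA.

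Among the effectors, Smad1 signal was 4232, 1444 and 4200 in proximal dKO, RA and control and 4253, 3890 and 3931 distally. The low array was again proximal RA (log2 -1.54), with -0.02 in distal RA. Smad4 and Smad5 stayed under 2-fold and Smad9 was under the floor on every array. Of the modulators, Htra1, a secreted serine protease read here by an x_at probe set, differed in opposite directions. It was 717.1 in dKO, 122.7 in RA and 248.5 in control proximally, and 1801, 127.8 and 479.7 distally in the same order. Its dKO effect was log2 1.72 (SE 0.34, limma adjusted p = 0.0625) and its RA effect log2 -1.46 (SE 0.34, limma adjusted p = 0.132).

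Nbl1, a secreted antagonist of the DAN family to which gremlin belongs, was higher in both conditions. It gave 280.9 in dKO, 438.2 in RA and 158.6 in control proximally, and 284.7, 301.2 and 57.9 distally, where the control value was under its floor. The difference from control was log2 0.82 in proximal dKO and at least 2.26 in distal dKO, and 1.47 in proximal RA and at least 2.34 in distal RA. Chordin-like 1 (Chrdl1), another secreted antagonist, was lower in RA, with 54.4 against 254.2 in control proximally and 89.9 against 181.5 in control distally. Neither passed the fit for RA (Nbl1 adjusted p = 0.0832, Chrdl1 adjusted p = 0.0866, both by limma). Tob1, an antiproliferative protein that binds SMADs, was log2 -1.14 in proximal RA and -0.57 in distal RA.

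The Id genes encode inhibitors of helix-loop-helix factors and are the most general BMP targets. Id1 stayed between log2 -0.47 and 0.57 in all 7 comparisons. Id3 was higher than control in each of the 4 condition comparisons, by log2 0.38 and 0.48 in dKO and 0.59 and 0.81 in RA, and its RA effect did not pass (log2 0.70, SE 0.14, limma adjusted p = 0.0951). Id2 was log2 -1.36 in proximal RA and -0.16 in distal RA. Dlx2, a homeobox gene of ridge and mesenchyme, was log2 -1.47 in proximal RA and -0.26 in distal RA, and its proximal minus distal difference was -0.40 in dKO, -2.50 in RA and -1.28 in control. Dlx5, a related gene of the ridge, was at least 1.28 in proximal dKO and -1.14 in distal RA. The zinc finger gene Gata3 was at least 1.51 in proximal dKO. Cdkn1a, a cell cycle inhibitor, was -1.38 in distal RA, and proximal minus distal it was -1.07 in dKO, -0.88 in RA and -1.89 in control. In control, Sox9, the cartilage regulator, was log2 1.03 higher proximally, and Dlx3, an ectodermal homeobox gene, differed by 2-fold in RA alone, where it was -1.35 proximal minus distal.

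**Figure D5:**
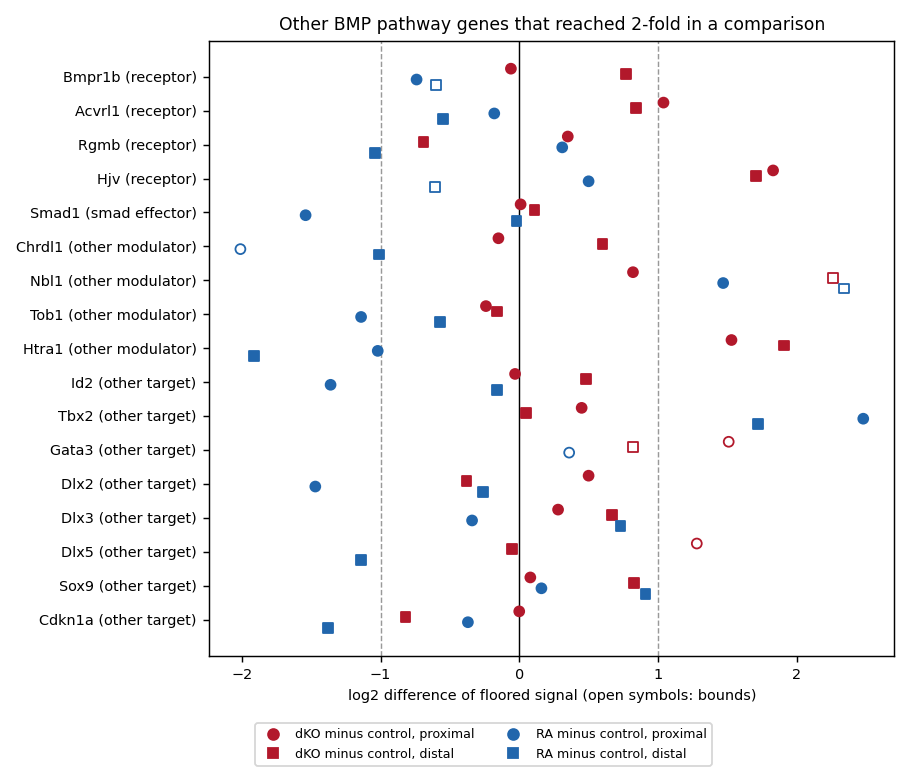
Difference from control in log2 floored signal for the 17 other BMP pathway genes that were 2-fold or more in any of the 7 comparisons, with dKO in red, RA in blue, circles for the proximal part and squares for the distal part; open symbols are bounds set by the floor. Hjv lies right of the 2-fold line in both dKO comparisons and Tbx2 in both RA comparisons.

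Genes whose pattern over the 6 arrays was most like that of a BMP gene were sought among 3251 genes with a range of at least 2-fold. This is a description over 6 arrays that share their controls. For Bmp2 the nearest were Dlx5 (r = 0.990), Pygl (r = 0.988) and Kirrel3 (r = 0.978), and 14 genes had r of at least 0.95. For Grem1 they were Irs1 (r = 0.990), 9930012K11Rik (r = 0.988) and Zic2 (r = 0.980), among 18 such genes. For Msx1 they were Insig2, Rtel1 and Vav2 (r = 0.997, 0.997 and 0.996), among 222. The x_at probe set of Smad7 was nearest to Zfp800, Nfxl1 and Uqcc2 (r = 0.996, 0.994 and 0.993), among 127. In the neighbours of Grem1, Msx1 and Smad7, as in those genes themselves, proximal RA was the lowest array. The same held of Bmp2, Dlx5 and Pygl, while Kirrel3 was lowest in proximal control.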

How the data were processed

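Total RNA from proximal and distal forelimb buds was hybridised to 1-colour Affymetrix arrays, 6 in all and 1 per group, so the number of arrays limits the precision. The deposited values are signal intensity on a linear scale. Per the submitters' processing notes the authors used MAS5, whose version was not given in the sources used here; the values show every array scaled to a 2%-trimmed mean of 500. Groups were taken from the sample titles. Of the probe sets, 34958 have 1 gene symbol, 932 have several and were not used, and 9211 are not listed; 34754 of those with 1 symbol matched RefSeq (GRCm38.p6) by gene ID. A gene's value is that of its probe set of highest mean log2. Signals were floored at the array median, log2-transformed, and a gene entered a comparison when at least 1 of its arrays was above the floor. A difference that involves a floored value is a bound. The additive fit used limma 3.58.1 in R 4.3.3 (trended prior, 2 residual and 4.64 prior degrees of freedom) on the 12147 genes above the floor on an array, and its code was tested on simulated data. All genes of the set were named with all their probe sets. Of the other pathway genes, those at 2-fold in a comparison were named, at most 4 per list and comparison, with other genes given as values within their list. Shh, Fgf4, Fgf8, Gli1 and Ptch1 were named as linked signalling genes, and 3 pattern neighbours for each of the 4 genes with the widest range. The genes, lists and rules were chosen with earlier results of these data known. Alternatives were another floor, no floor with a pseudocount of 16, scaling by the median, quantile normalization, other probe sets, a 1.5-fold threshold and, for the fit, other filters, priors and sets of arrays. Leaving out x_at probe sets was added after the data were seen. Python 3.11.15 was used for the rest.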

Additional observations from a re-analysis of the deposited data

Results flagged for a closer look

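Bmp2, Msx1, Bmp7 and Smad7 had differences from control of opposite sign in the distal and proximal parts, and with 1 array per group none of these was tested. For Bmp2 in dKO the distal minus proximal difference was log2 -1.65 (-0.10 distally, 1.54 proximally), the only one of them past 2-fold that rests on a probe set with a listed accession. For Msx1 in dKO it was 0.48 (0.07 and -0.41), and for Bmp7 in RA -0.76 (-0.18 and 0.58). For Smad7 in RA it was 5.29 by the x_at probe set (0.31 and -4.97) and 0.68 by the other one.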

How the results depend on the processing

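No fit with a replicate block could be made, since each group has 1 array; the additive fit itself compares the parts within conditions. Of 406 recomputed differences of single genes, 398 stayed on their side of 2-fold. The 2 that reversed are one result, Smad7 in proximal dKO, at -0.04 from its other probe set or without x_at probe sets. Many of the 398 could not have moved, so their number is no measure of stability. The 63 under the lower floor were fixed, since the 9 measured genes were above the main floor on every array. Averaging probe sets could change only genes with several, and leaving out x_at probe sets only Smad7. Of the 9 measured genes, the number at 2-fold in distal dKO was 1 in the main setting, 2 with each array divided by its median and 3 at a 1.5-fold threshold. Of all genes tested there, 620 were higher and 61 lower, 321 and 192 after that division, and 1404 and 254 at 1.5-fold. In proximal dKO 2 of the 9 were at 2-fold, and 1 with probe sets averaged or x_at probe sets left out. Of all genes there, 471 were higher and 42 lower, against 278 and 29, and 467 and 41, in those 2 settings. Between the parts of the dKO 0 of the 9 were at 2-fold, where 60 of all genes were higher proximally and 84 lower. At 1.5-fold 5 of the 9 were, where 370 and 424 of all genes were. The additive fit called 0 of 9 for each effect. Without a filter on low signals it fitted all 10 genes, with infinite prior degrees of freedom, and called 3 for dKO, 3 for RA and 6 for part. The 3 for dKO were Grem1 lower, and Nog and Smad7 (x_at probe set) higher. Nog was under the floor on all 6 arrays, so its call compares only the floors of the arrays. With a pair of arrays or the proximal RA array left out it called 2 for dKO (Smad7 by its x_at probe set higher, Grem1 lower), 1 to 3 for RA and 4 to 5 for part, with 1 residual degree of freedom, so these calls rest even more on pooled variance. The fit's calls over all genes were 283 for dKO, 66 for RA and 0 for part; 87 and 15 for dKO and RA after quantile normalization; 7656, 1245 and 768 without the filter; and 1435 to 1447, 537 to 1171 and 294 to 431 with arrays left out. Counts of all genes at 2-fold in the 7 comparisons ran from 144 to 1214; they were 497 to 2499 with a floor at the 25th percentile, 75 to 654 with probe sets averaged and 794 to 3702 at 1.5-fold. Division by the median moved the median of all genes by -0.19 and -0.36 in proximal and distal dKO and by -0.20 in distal RA, and the share of higher among 2-fold calls in distal dKO was 62.6%, against 91.0% as deposited, and in distal RA 27.3%, against 50.3%.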
